A study of Mus musculus with 2 samples.

Results

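Annotated transcripts longer than 5 kb were examined in long-read RNA sequencing of the mouse heart. A transcript was taken when its GENCODE model was longer than 5000 bases and at least 5 reads in each of 2 libraries were assigned to it. The rule gave 659 transcripts of 643 genes, out of 8377 annotated transcripts with that many reads and out of 7031 annotated transcripts above 5000 bases. These members were chosen by their length and read counts, so both are given as a description. Both libraries were made from total RNA of heart tissue of B6CASTF1/J females (a first-generation hybrid of inbred strains) aged 14 days, and form 1 untreated group labelled biological replicates 1 and 2. Both carry the same donor label, and the labels of replicate 2 name its animal differently in separate fields, so p-values and intervals cover counting error, and differences between the libraries may be technical.

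In this assay each read is 1 cDNA molecule. A read is assigned to an annotated transcript when it carries that transcript's whole chain of introns, whatever the position of its own ends. A read that carries only part of an annotated chain is classed as incomplete. Reverse transcription in such protocols usually starts at the poly(A) tail, so a molecule that is not copied to its start lacks its 5′ part. It falls into the incomplete class if introns are lost with that part. A copy that stops inside the first exon still carries the whole chain. Long mRNAs are of 2 broad kinds. Some encode very large proteins, among them the myosin heavy chains, titin, laminins and fibrillar collagens of muscle and its matrix. Others encode a protein of ordinary size and carry a long 3′ untranslated region (3′ UTR), which hosts binding sites for microRNAs and RNA-binding proteins and often holds several alternative poly(A) sites.

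Among the members, 16 genes contributed 2 transcripts each, and in 9 of these pairs the introns differed by an internal exon that one form has and the other lacks. A read must span the site of such an exon to tell the long forms apart. Of the exons that are wholly coding, only 5 are shown. Each is read from the GENCODE M21 transcript sequence on mm10, which holds the reference allele only. Capitals mark the exon and lower case the neighbouring exons on either side, 15 bases long, or 3 for Myom1.
Myom1-202, chr17:71082203-71082496, + strand: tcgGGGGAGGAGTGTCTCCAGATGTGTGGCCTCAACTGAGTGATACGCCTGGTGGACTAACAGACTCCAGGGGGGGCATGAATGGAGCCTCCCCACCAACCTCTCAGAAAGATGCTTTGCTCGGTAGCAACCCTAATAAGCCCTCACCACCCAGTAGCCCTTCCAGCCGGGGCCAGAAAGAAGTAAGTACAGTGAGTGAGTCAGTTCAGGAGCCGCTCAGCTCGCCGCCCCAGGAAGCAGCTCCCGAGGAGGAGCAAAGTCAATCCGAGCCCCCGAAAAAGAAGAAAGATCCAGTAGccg
Map3k7-201, chr4:31994874-31994954, + strand: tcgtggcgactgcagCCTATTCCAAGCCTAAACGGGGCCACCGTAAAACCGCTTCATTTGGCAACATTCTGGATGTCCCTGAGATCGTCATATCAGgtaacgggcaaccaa
Slc30a9-204, chr5:67324674-67324733, + strand: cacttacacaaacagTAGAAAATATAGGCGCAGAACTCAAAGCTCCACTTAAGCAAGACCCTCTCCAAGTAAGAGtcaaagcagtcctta
Usp47-202, chr7:112046927-112046986, + strand: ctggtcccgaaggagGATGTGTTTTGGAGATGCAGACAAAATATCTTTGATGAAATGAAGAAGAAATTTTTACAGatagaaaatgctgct
Smc6-201, chr12:11276260-11276365, + strand: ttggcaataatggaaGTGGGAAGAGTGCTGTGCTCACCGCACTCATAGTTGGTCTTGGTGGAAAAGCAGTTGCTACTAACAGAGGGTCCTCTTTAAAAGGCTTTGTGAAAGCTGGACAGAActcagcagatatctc

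The 81-base exon of Map3k7, the 60-base exons of Slc30a9 and Usp47 and the 294-base exon of Myom1 have lengths divisible by 3 and keep the reading frame. The 106-base exon of Smc6 does not, and the annotated form without it, Smc6-205, is classed as a target of nonsense-mediated decay and encodes 91 residues. Abcc9, a regulatory subunit of ATP-sensitive potassium channels, has 2 members whose coding sequences have the same length, 4641 bases, and different 3′ ends. Its alternative C termini are known as SUR2A and SUR2B. The last coding stretches, 138 bases each with the stop codon, are given below in capitals throughout.
Abcc9-202, chr6:142594005-142594142, - strand: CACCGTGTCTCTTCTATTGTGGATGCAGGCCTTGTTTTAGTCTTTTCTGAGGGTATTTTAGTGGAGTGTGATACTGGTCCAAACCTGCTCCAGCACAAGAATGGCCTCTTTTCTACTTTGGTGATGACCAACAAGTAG
Abcc9-203, chr6:142590366-142590503, - strand: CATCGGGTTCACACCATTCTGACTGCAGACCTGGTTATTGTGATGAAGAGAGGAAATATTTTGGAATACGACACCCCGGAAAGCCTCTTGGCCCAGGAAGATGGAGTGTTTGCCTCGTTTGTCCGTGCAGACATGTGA

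The members were long mostly in their last exon. Their median length was 6004 bases (quartiles 5406 and 7028) and they had a median of 12 exons. The last exon had a median of 4145 bases, or 70.6% of the transcript, and was the longest exon in 630 of the 659. Among 648 members with an annotated coding sequence, the coding part had a median of 1910 bases and the 3′ UTR 3789 bases, or 65.0% of the length. The 3′ UTR took over 50% of the length in 447 of them. In the 6804 annotated transcripts of 1 to 5 kb with the same minimum of reads, the 3′ UTR had a median of 37.2% of the length and the coding sequence 52.8%.

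The bases between the first and the last intron are the ones that a read has to cross to match the intron chain, apart from the outermost exons. Their median was 1428 in the members (quartiles 728 and 2670), against 883 in the transcripts of 1 to 5 kb. The sum was under 1000 bases in 229 members and under 2000 in 411. Only 24 members, or 3.64%, had over 5000 such bases, whereas 1323 of the 6372 long annotated transcripts without the reads did, or 20.8%. A member with a short chain and a long last exon can be counted from a read far shorter than its annotated length.

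**Figure D1:**
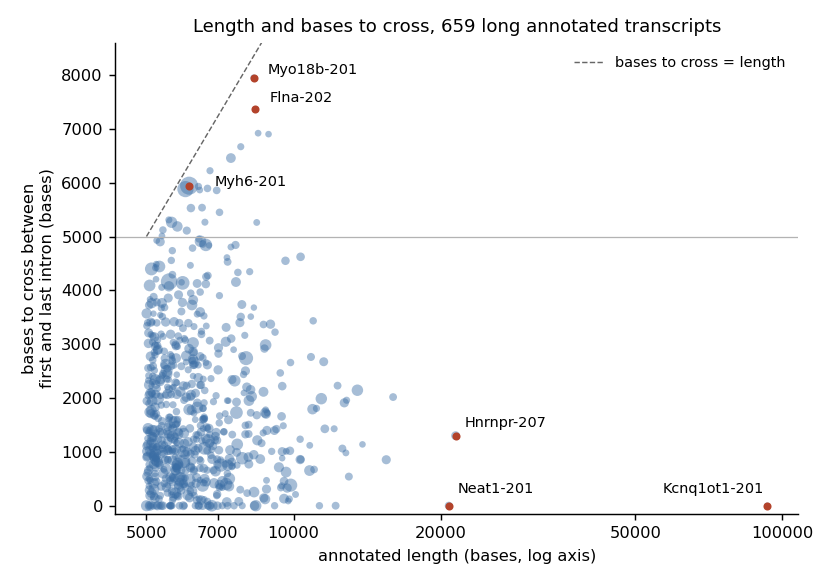
Annotated length (log axis) against the bases between the first and last intron for each of the 659 members; the area of a point grows with mean CPM, named transcripts are marked in red and the grey line is at 5000 bases. Most members lie far below the dashed line of equality, and 24 lie above 5000 bases to cross.

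Detection was lower at greater length and lowest above 3000 bases to cross. Of the annotated transcripts of 5 to 6 kb, 11.6% were members, of those of 6 to 7 kb 10.1%, and of those above 10 kb 4.40%. By bases to cross, 12.9% were members up to 1000, 15.1% from 1000 to 2000, 12.8% from 2000 to 3000, 5.87% from 3000 to 5000 and 1.78% above 5000. By the length of the last exon the order ran the other way, from 2.60% up to 1000 bases to 13.6% from 3000 to 5000, with 10.7% above 5000. These are shares of annotated models, many of which the heart may not express, and the parts of expression and of read length were not told apart.

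The genes of the members also held more incomplete reads where the chain was longer. Incomplete reads made up 3.48% and 4.16% of the spliced reads in replicates 1 and 2 in genes whose members had up to 1000 bases to cross. That class includes members with no intron or a single intron, whose own forms cannot give an incomplete read. Reads on unspliced annotated transcripts were counted among the spliced reads. The share was 19.0% and 18.9% from 2000 to 3000 bases and 28.4% and 28.1% from 3000 to 5000. Above 5000 bases it was 26.4% and 24.1%, and 53.2% and 52.7% without Myh6, which supplied most of those reads. Over all 643 genes it was 19.5% ± 0.549 (SD, n = 2), against 7.68% ± 0.00776 in 6272 genes in which no annotated form above 5 kb had a read. A few well-read genes carry these sums, and the median over genes was 8.33% and 7.89% against 4.17% and 4.26%. Since a member had to have complete reads, this share is a description of the chosen genes and was not tested.

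**Figure D2:**
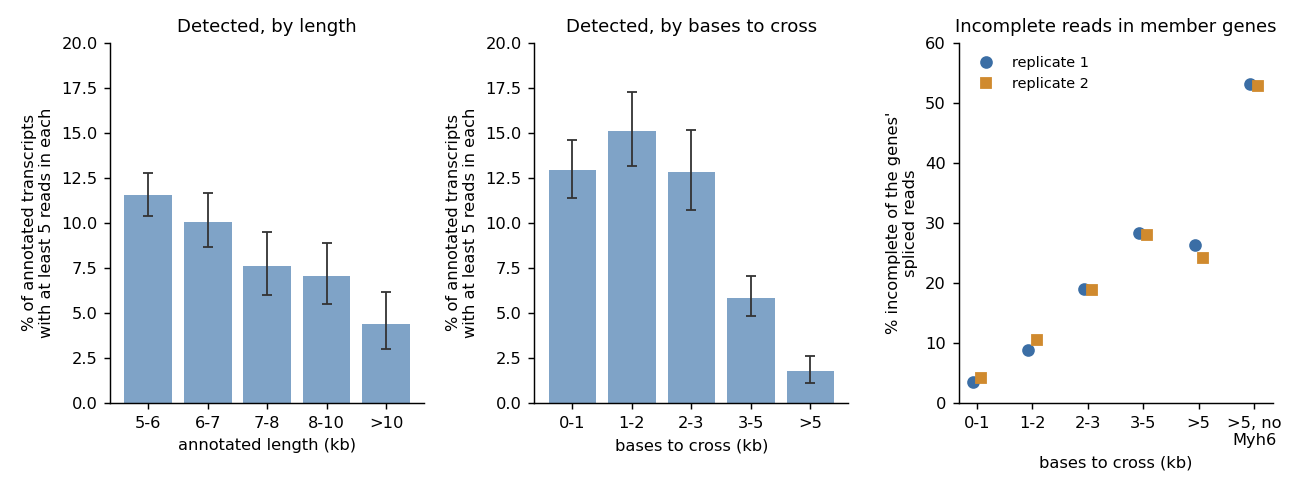
Left and middle, percent of annotated transcripts above 5 kb that were members, by length and by bases to cross, with exact 95% binomial intervals; right, percent of incomplete reads among spliced reads of the members' genes in each replicate. Detection ends at 1.78% above 5000 bases to cross, and incomplete reads reach 53.2% and 52.7% there without Myh6.

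The 24 members with over 5000 bases to cross encode very large proteins, with coding sequences of 5115 to 7920 bases. Myo18b-201, an unconventional myosin of striated muscle, had the largest sum, 7951 bases, with 5 reads in each library. Next came Flna-202, the actin cross-linker filamin A, with 7359 bases and 6 and 5 reads, and Sptbn1-201, a spectrin of the membrane skeleton, with 6919 bases and 6 and 7 reads. Igf2r-201, the receptor that clears insulin-like growth factor 2, had 6901 bases and 6 reads in each, and Fn1-203, fibronectin, had 6668 bases and 9 and 8 reads. For these transcripts the complete reads were the minority of their gene. Incomplete reads held 90.2% and 88.7% of the spliced reads of Myo18b and 79.8% and 76.3% of those of Sptbn1. 2610507B11Rik-201, with 6457 bases to cross, had 45 and 44 complete reads and 42.1% and 48.4% incomplete ones. The transcript with the most exons was Col5a1-201, a fibrillar collagen chain with 66 exons, with 8 and 6 complete reads beside 83.3% and 84.1% incomplete. Col5a2-201, its partner chain with 54 exons, had 16 reads in each library, and Col4a1-201, a basement membrane collagen with 52 exons, had 251 and 260.

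At the other extreme, 19 members were unspliced and 19 had a single intron. An unspliced transcript has no intron chain, so its reads are placed by position alone. Fem1a-201, a substrate receptor of ubiquitin ligases, led with 162 and 132 reads. Paqr9-201 followed with 100 and 144, and Purb-201, a repressor that binds single-stranded DNA and RNA, with 31 and 44. The nuclear non-coding RNA Malat1-201 had 20 and 24 reads. Neat1-201, the scaffold RNA of paraspeckles, is annotated at 20771 bases and had 18 and 11 reads. Kcnq1ot1-201, the imprinted antisense RNA of the Kcnq1 locus, is annotated at 93092 bases and had 5 and 6. It was the longest member. For Kcnq1ot1, whose model lies opposite Kcnq1, and for the antisense AC165962.1-201 (9 and 10 reads), reads of the other strand could be misplaced if the strand of a read is not known.

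For an unannotated spliced model seen in a single read, the model length gives the length of that read, unless its ends were moved. These models include incomplete ones, and reads on annotated transcripts are not among them. Among unannotated spliced models with 1 read, 39219 in replicate 1 and 39814 in replicate 2, the median length was 2479 and 2427 bases. Above 5000 bases were 7.20% (95% interval 6.95 to 7.46%) and 7.27% (7.02 to 7.53%), and the longest were 12405 and 15320 bases. The annotated length exceeded the longest such model of replicate 1 in 12 members and that of replicate 2 in 5. These 5 were Kcnq1ot1-201, Hnrnpr-207 (21452 bases), Neat1-201, Tmem245-201 (15981 bases) and Serbp1-201 (15474 bases). Hnrnpr-207 and Serbp1-201, which encode RNA-binding proteins, have last exons of 20029 and 13834 bases and only 1301 and 854 bases to cross. They had 15 and 35 reads, and 25 and 34.

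For a member itself the tables give its annotated length and not where its reads ended. The 3′ ends of other molecules of the same gene were therefore taken from single-read models that use the member's last splice acceptor, an analysis chosen after the data had been seen. There were 3091 such models in replicate 1 and 3117 in replicate 2, on 517 and 506 members. An end within 300 bases of the annotated end was found in 45.3% (95% interval 43.6 to 47.1%) and 45.7% (44.0 to 47.5%). Without Myh6 the values were 36.6% and 37.3%. In annotated transcripts of 1 to 5 kb the share was 76.5% and 76.8%. A model that stops anywhere inside a last exon of 300 bases or less is counted as near the end whatever it does, and with last exons above 300 bases alone the shares were 34.0% and 35.1% in the members and 74.8% and 75.2% in the transcripts of 1 to 5 kb. The models share positions, since 87.9% and 88.5% ended at a base where another model of the same member ended. They are therefore not independent. Of the ends, 73.0% and 74.9% lay on the exact annotated end of some transcript, and the sources used here do not say whether ends were moved to known ones.

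The longer the last exon, the fewer of these models reached its end. With a last exon of 300 to 1000 bases, 91.4% and 91.3% of models did so, with 3000 to 5000 bases 21.5% and 17.6%, and above 5000 bases 2.39% (1.24 to 4.13%) and 1.58% (0.685 to 3.09%). In that last class the models covered a median of 1004 and 869 bases of last exons with a median of 5978. A similar decline was seen in transcripts of 1 to 5 kb, from 89.5% and 89.3% with a last exon of 300 to 1000 bases to 32.9% and 30.7% with 3000 to 5000. Of the 145 members with at least 5 such models in each library, 62 had their median end within 300 bases of the annotated end in both libraries and 77 had it over 300 bases short in both. The last exon was 300 bases or less in 7 of the 145. Taken to the median end, 66 of the 145 transcripts were 5000 bases or shorter in both libraries and 71 were longer in both.

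**Figure D3:**
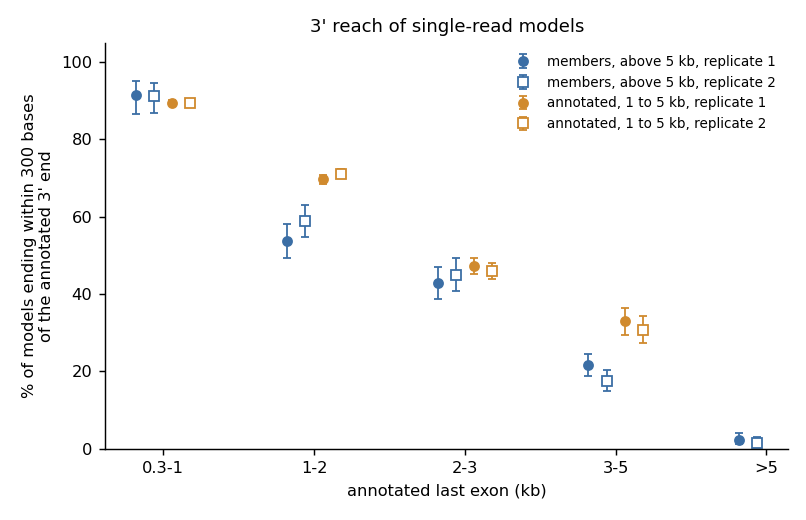
Percent of single-read models ending within 300 bases of the annotated 3′ end against the length of the last exon, for members (blue) and for annotated transcripts of 1 to 5 kb (orange) in replicate 1 (filled circles) and replicate 2 (open squares), with exact 95% binomial intervals. Last exons of 300 bases or less are left out. In the members of replicate 1 the values run from 91.4% to 2.39%.

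The members with the most models showed both patterns. In Myh6-201, 425 and 420 models ended a median of 76 bases into an 81-base last exon. Lamb2-201, a laminin chain, was read to its end in 29 of 29 and 20 of 20 models, and Ltbp4-205, a carrier of latent TGF-beta, in 29 of 29 and 28 of 28. Col4a2-201 reached the end of its 1229-base last exon in 16 of 16 and 24 of 24. Short ends led in the fibrillar collagens. The models of Col3a1-201 covered a median of 416 and 418 of 1106 bases, and 3 of 93 and 5 of 76 came near the end. Those of Col1a1-201 covered 375 of 1570 bases in both libraries, with 0 of 36 and 0 of 30 near the end. Eif4g2-213 models covered 826 of 5008 bases, those of the myosin phosphatase partner Mprip-202 708 of 5345, those of the amyloid precursor App-206 983 of 5748, and those of Tbc1d17-201 389 of 6798, in both libraries and with 0 near the end in either. These examples were picked after their values had been seen.

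Ends that fell short often lay behind a poly(A) signal. The letters AATAAA or ATTAAA were searched in the 40 bases before an end, on the transcript strand. Among positions over 300 bases short that match no annotated end of any transcript, 173 of 321 in replicate 1 (53.9%, 95% interval 48.3 to 59.4%) and 175 of 315 in replicate 2 (55.6%, 49.9 to 61.1%) had one. Among short positions at the annotated end of another transcript it was 54.2% and 57.9%. The annotated ends of the members had one in 81.0%. Of all 40-base windows in the same last exons, 4.57% did. A stretch of 20 bases with at least 12 A after the end, where an oligo(dT) primer can anneal, followed 12.1% and 10.5% of the short positions at no annotated end, against 1.56% of all windows. A match is a description of the letters and shows no site in use.

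Read counts were concentrated in a few members. A read counted as 1 molecule, so CPM (reads scaled to the total of assigned reads, not divided by length) compares molecules between transcripts, but molecules that failed to give a complete read are missing from it. The members held 38915 and 41970 reads, or 5.82% and 5.76% of all annotated reads. The top 10 members held 50.3% and 51.1% of these reads, and the median member had 15 and 16 reads. In bulk tissue, fewer cells of a type and less RNA per cell cannot be told apart. Markers of 4 cell types of the heart were read, with cardiomyocyte genes led by Myh6. Of 5 skeletal muscle markers, Myh1, Myh2, Myh4 and Tnnt3 had no read, and the skeletal α-actin Acta1 had 522 and 525 reads.

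Myh6 led the members, and the other contractile members were far lower. Myh6, the fast α myosin heavy chain of the adult rodent heart, had 2 members with 39 exons each on chromosome 14 (mm10, 54941921 to 54966641 for Myh6-201, minus strand). Myh6-201 had 9947 and 10952 reads, or 11706 ± 161 CPM (SD, n = 2), and Myh6-205 had 2717 and 3024, or 3215 ± 68.8 CPM. The 2 transcripts share 37 introns and the same coding sequence of 5817 bases, and differ in the acceptor site of an intron in the 5′ UTR. Myh6-201 took 78.4% and 78.2% of the gene's annotated reads. Both together made up 32.5% and 33.3% of all member reads. Its near copy Myh7, the slow β chain, had only 1 and 4 annotated reads, all of a long form, and is no member; reads that fit both copies could be split by the authors' alignment. The M-band proteins Myom2-201 (135 and 173 reads) and Myom1-203 (135 and 164) followed, and all contractile members other than Myh6 held 396 and 453 reads together. In all, 8 of 26 contractile genes with a long annotated form had a member.

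Among extracellular matrix and basement membrane genes, 16 of 43 with a long annotated form had a member. Col3a1-201, collagen III of reticular fibres, had 3536 and 3802 reads and the libraries differed little (4112 ± 12.4 CPM). Col1a1-201, the α1 chain of collagen I, had 515 and 594 reads, Ltbp4-205 342 and 315, and Col4a1-201 251 and 260. The partner of Col1a1 in collagen I, Col1a2, is annotated at 5348 bases and had no annotated read in either library. It had 128 and 117 incomplete reads, 92.8% and 87.3% of its spliced reads.

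Genes with a long annotated 3′ UTR made up the rest of the leading members. Their reads were assigned by intron chain and need not reach the annotated 3′ end. Eif4g2-213, a translation regulator related to eIF4G, had 658 and 725 reads. Sod2-201, the mitochondrial superoxide dismutase, had 616 and 695, on a transcript of 5861 bases that encodes 222 residues. The catalytic subunits of protein phosphatases 2A and 1, Ppp2ca-201 and Ppp1cb-201, had 428 and 406 reads and 410 and 421. Rab11b-201, a GTPase of recycling endosomes, had 387 and 422, Glo1-206, which detoxifies methylglyoxal, 374 and 398, and the stress granule protein G3bp1-201 321 and 419. Glo1-206 has a last exon of 9291 bases for a protein of 184 residues. The members with the fewest residues outside the decay class above were Tmem167-203 (72 residues, 30 and 34 reads) and Lyrm9-203 (78 residues, 10 and 15 reads), with 3′ UTRs of 7812 and 7730 bases. Pnpla8-201, a calcium-independent phospholipase, is annotated at 13507 bases and had 130 and 131 reads.

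The members of RNA-binding genes held 1269 and 1384 reads together and those of the ubiquitin system 706 and 781, while each of the other groups described below held from 52 to 247 in replicate 1 and from 56 to 227 in replicate 2. Of the ion channel, pump and calcium handling genes with a long annotated form, 5 of 34 had a member. Camk2d-226, the main cardiac CaM kinase, had 20 and 26 reads and the phosphodiesterase Pde3a-201 9 and 18. Among receptors and adhesion molecules, 14 of 53 did. Il6st-203, a cytokine co-receptor, had 50 and 46 reads, the VEGF receptor Kdr-201 31 in each and the lipoprotein receptor Vldlr-207 30 in each. Of the cytoskeletal linkers, 5 of 42 did. Vinculin, Vcl-201, had 28 and 32 reads and the actin scaffold Iqgap1-201 7 in each. In the ubiquitin system 17 of 43 did. The ligase Nedd4-201 had 163 and 205 reads, the deubiquitinase Usp13-201 126 and 157, and the muscle F-box protein Fbxo40-201 74 and 83.

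Transcription factors and chromatin genes had a member in 11 of 84. The hypoxia factor Epas1-201 had 76 and 56 reads, the nuclear factor Nfib-202 60 and 56, and the muscle factor Mef2a-208 22 and 21. RNA-binding genes had a member in 10 of 46. After Eif4g2-213 came the nuclear matrix proteins Hnrnpu-201 (290 and 287) and Matr3-201 (89 and 110). Membrane traffic had a member in 5 of 51, with the kinesin Kif5b-201 (71 and 83), Snx13-201 (12 and 25) and the clathrin heavy chain Cltc-202 (7 and 17). Energy metabolism had a member in 8 of 21, with Pdk1-201, which inhibits pyruvate dehydrogenase (60 and 49) and the mitochondrial fusion GTPase Opa1-206 (38 and 43). Kinases, phosphatases and GTPase regulators had a member in 18 of 69, with the nuclear kinase Hipk3-201 (19 and 23) among them. The 11 lists covered 117 of the 643 genes. The share over all genes with a long annotated form was not computed, so no list is called high or low.

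Many genes of giant proteins had reads but no member. Of 394 list genes with a long annotated form and no member, 217 had no read on such a form in either library. Among the 147 with at least 10 spliced reads in each library, 64 had over 50% incomplete reads in both. Ttn, the sarcomeric spring titin, had 0 annotated and 53 and 59 incomplete reads, and its longest model has 105356 bases to cross. Ryr2, the calcium release channel, had 47 and 39 incomplete reads, and the cytoplasmic dynein heavy chain Dync1h1 38 and 41, with 0 annotated in either. Dsp, the desmosomal plakin, had 5 and 2 annotated reads beside 52 and 59 incomplete.

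Among genes with a member, the long form held nearly all annotated reads in most. The minimum of 5 reads on a long form in each library leaves out genes with a low long share. Reads were assigned by intron chain, so a read on a long form need not be longer than 5000 bases. In 254 genes with a member, an annotated model of 5000 bases or less and at least 20 annotated reads in each library, the long forms held over 95% of annotated reads in 174, 50 to 95% in 49 and 5 to 50% in 31. All annotated reads of Col3a1, Sod2, Col1a1 and Ppp2ca were on long forms. Rab11b had 4 of 392 and 5 of 429 on shorter forms. Genes read mostly as a shorter form, named here after their values were seen, included Fuca2 (36.1% and 37.9% long), App (31.7% and 28.3%), Serbp1 (22.1% and 28.1%), Hdlbp (20.3% and 26.6%), Stat3 (13.4% and 11.9%) and Ldb3, the Z-disc protein cypher (11.3% and 11.4%). No gene was called as different between the libraries. Genes with all annotated reads on long forms in both libraries, such as Col3a1 and Sod2, could not be called. In Fisher's exact test per gene (two-sided), 0 of 369 genes, a background of 0%, had a Benjamini-Hochberg adjusted p under 0.05, and 3 had an unadjusted p under 0.05. These were Agpat3 (64.6% and 43.5% long), Ehbp1l1 (9.09% and 25.5%) and Usp15 (34.0% and 53.7%).

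The 9 exons that separate 2 members of a gene ranged from rarely to nearly always included. Inclusion is the percent of reads with the exon among reads that hold both flanking splice sites. The 294-base exon of Myom1, known from the embryonic heart form of myomesin, was in 12 of 245 and 17 of 281 such reads, or 4.90% (95% interval 2.56 to 8.40%) and 6.05% (3.56 to 9.51%). The 60-base exon of the zinc transporter family gene Slc30a9 was in 96.8% and 96.6%. The exon of Smc6, a subunit of a chromosome maintenance complex, was in 86.9% and 75.6%. Intermediate values were seen in Usp47, a deubiquitinase (47.1% and 55.3%), in Map3k7, the kinase TAK1 (29.6% and 35.5%), and in the putative lipid flippase Atp9b (50% and 37.1%). In Mprip a 66-base exon whose leading 33 bases end the coding sequence was in 89.9% and 88.5%.

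In Abcc9 the 176-base exon with the end of the coding sequence of Abcc9-202, printed above, was in 27 of 40 and 30 of 54 reads, or 67.5% (50.9 to 81.4%) and 55.6% (41.4 to 69.1%). The remaining reads joined the exon before it to the last exon, where the coding sequence of Abcc9-203 ends. Complete reads were few, 8 and 14 for Abcc9-202 and 5 and 8 for Abcc9-203, so most of these reads came from incomplete or unannotated forms. No exon passed the test of the difference between the libraries. The lowest two-sided Fisher's exact p was 0.187 for Smc6, and 0 of 9 had an unadjusted p under 0.05. The intervals of Atp9b, Map3k7, Abcc9, Smc6 and Usp47 span over 10 percentage points in each library, so moderate differences would not be detectable at this depth.

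**Figure D4:**
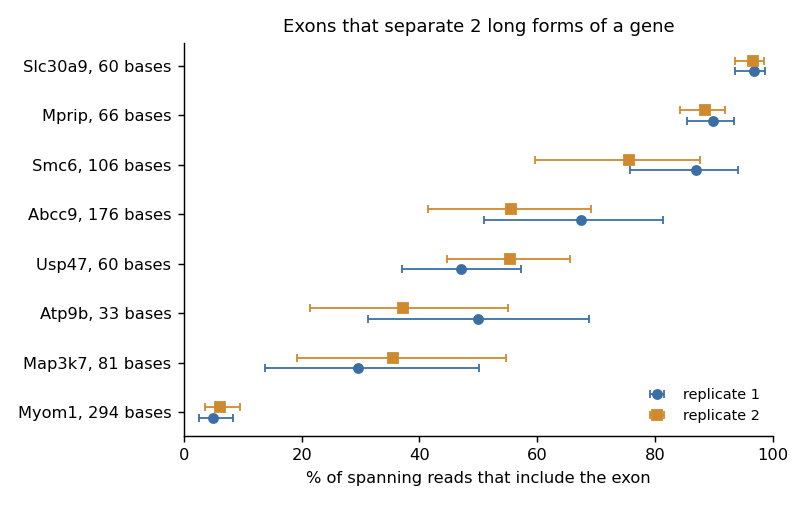
Percent of spanning reads that include the exon separating 2 members of a gene, for 8 exons, in replicate 1 (blue circles) and replicate 2 (orange squares), with exact 95% binomial intervals. Values run from 4.90% and 6.05% in Myom1 to 96.8% and 96.6% in Slc30a9, and the intervals of the libraries overlap for each of these exons.

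Most members had similar shares of both libraries. Over the 239 members with at least 20 reads in each, the quartiles of the log2 ratio of CPM, replicate 2 over replicate 1, were -0.23 and 0.17. With a two-sided exact binomial test on all annotated transcripts with at least 10 reads in all and Benjamini-Hochberg adjustment, 118 of 9090 were called, a background of 1.3%, and 2 of the 659 members were. The minimum of 5 reads in each library limits how far a low member can differ. Among the 8377 annotated transcripts with the same minimum, 55 were called higher in replicate 2 and 55 lower. The members were not matched to them by read number, so the counts are not compared further. At an unadjusted p under 0.05 in the binomial test there were 31 members (4.70%), 644 of the 8377 (7.69%) and 740 of all tested (8.14%).

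Both called members were lower in replicate 2. Timp4-201, an inhibitor of matrix metalloproteinases on chromosome 6 (115241892 to 115252205, minus strand), had 63 and 11 reads (log2 ratio -2.63, 95% interval -3.70 to -1.69, adjusted p = 2.92e-08 in the exact binomial test). All annotated reads of Timp4 were on this form and none was incomplete. Fech-208, ferrochelatase, the last enzyme of haem synthesis, had 336 and 268 reads (log2 ratio -0.44, 95% interval -0.67 to -0.20, adjusted p = 0.0201 in the exact binomial test). The shorter annotated forms of Fech had 22 and 18 reads, and the long share was 93.9% and 93.7%. The summed CPM of the erythroid markers Hba-a1 and Hbb-bs was 12799.6 in replicate 1 and 11199.5 in replicate 2, and its part in the difference of Fech was not tested.

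**Figure D5:**
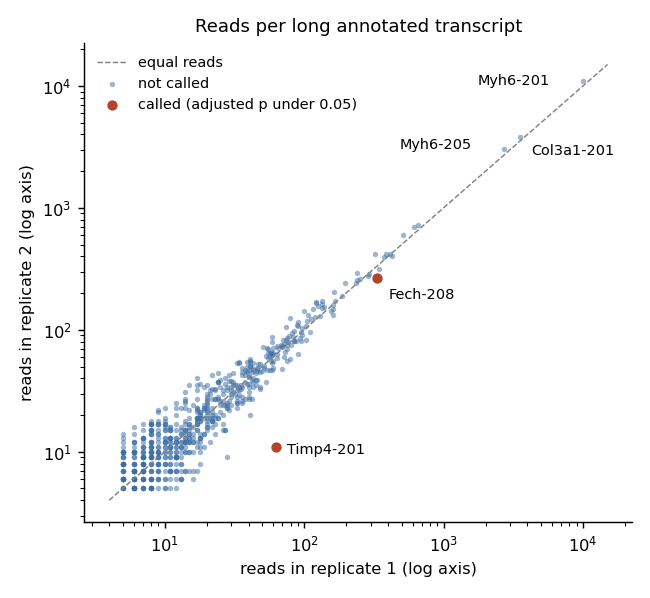
Reads per member in replicate 1 against replicate 2, both on log axes, with the dashed line at equal reads; members called by the exact binomial test are red. Timp4-201 lies below the others at 63 and 11 reads, and Fech-208 lies just under the line at 336 and 268.

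At the edge of the rule the values ran on without a gap. Just above 5000 bases were Btg1-201 (5001 bases, 79 and 124 reads), Rcsd1-202 (5001 bases, 18 and 19 reads) and Dennd5a-201 (5004 bases, 64 and 59 reads). At exactly 5000 bases, and so left out, were Srl-201 (182 and 175 reads), Mrpl19-201 (19 and 24) and Fbxw8-201 (83 and 96). In the lower of the 2 libraries, 58 members had exactly 5 reads, and 77 long annotated transcripts had 4 and were left out.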

How the data were processed

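Heart RNA of 1 group was read in 2 libraries of 896941 and 972159 reads. The deposited tables give whole-number read counts for each model, its exon number and length, and the paired models give exon positions. Per the text deposited with the files, the authors used mm10 and GENCODE M21, 1 library at a time, and per the file headers TALON named the models. Neither aligner nor filters are named in the sources used here. The files' length and exon values of annotated models were checked against the GENCODE M21 sequences. CPM used reads other than genomic and spike-in ones, 858071 and 926560 in all, so 1 read was 1.17 and 1.08 CPM, and a count of 0 allows 3 reads (3.50 and 3.24 CPM).

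Members and gene lists were chosen with earlier results of these data known. Annotated transcripts with at least 10 reads in all were set against each other in the 2 libraries (exact binomial test on the totals, two-sided), and genes with at least 20 annotated reads in each by Fisher's exact test on reads above against at or below 5000 bases, each with Benjamini-Hochberg adjustment over all features tested (threshold 0.05). Both compare libraries, not conditions. They were tested on simulated data. Intervals are exact Clopper-Pearson intervals at 95% and cover counting error only. Named were the members highest in CPM, longest, with most bases to cross, with most exons or unspliced, called, highest in each of 11 lists, shortest in protein, with most reads beside a shorter form, and nearest the edges. Some items this rule would name, and 1 of the exons, are not reported here. Python 3.11.15, scipy 1.17.1 and, for TMM totals, edgeR were used. Alternatives changed the length limit, read minimum, totals and level.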

Additional observations from a re-analysis of the deposited data

How the results depend on the processing

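The 659 members became 1531 above 4000 bases, 331 above 6000, 413 at a minimum of 10 reads and 1365 at 1. Their 5.79% of annotated reads became 11.1% above 4000 bases, 3.67% above 6000, 4.39% of all reads but spike-ins, 3.88% without Myh6, and 5.86 to 5.92% when a single library set the minimum. The 2 called members were called, lower in replicate 2, with TMM-scaled totals, no minimum of reads, totals by length class and at gene level. At gene level 9 of 643 genes were called, 3 higher and 6 lower, beside 10.5% of all genes tested. The added ones were Ube2o, Pcdh7, Mef2a, Fam117b, Chrm2, Hnrnpr and Plekhf1. All genes tested included unannotated ones, whose names may not match between libraries processed 1 at a time. A gene without a match has reads in a single library, so the 10.5% may be no like background for the 643. The long share gave 0 calls under both alternatives, with 4 and 7 genes at an unadjusted p under 0.05 in Fisher's test. The median of 1428 bases to cross was 1424 above 4000 bases, 1436 above 6000, 1364 with at least 10 reads, 3400 weighted by reads and 1659 so weighted without Myh6. Incomplete reads, 19.5% in the members' genes, were 8.11% as a median over genes and 16.5% without Myh6.

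Members were 9.37% of long annotated transcripts, 19.4% with at least 1 read and 5.87% with at least 10, where the last exon held a median of 73.0% of the length. The 45.5% of models near the annotated 3′ end became 44.8% within 100 bases, 46.6% within 500, 48.5% with all unannotated models, 36.9% without Myh6, 34.6% with last exons above 300 bases alone, 49.2% with incomplete models and 42.8% with the other classes. Alternatives that leave out Myh6, those on 3′ ends and the last 3 read minimums were added after seeing the data. Leaving out a library leaves no test between libraries. No paired analysis was possible because the 2 libraries form 1 group. With a median of 15 and 16 reads per member, differences of most members could be seen only if large.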
